A study of Mus musculus with 4 samples.

Results

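The ubiquitin-editing brakes on NF-kB signalling described here were 10 genes, Tnfaip3, Tnip1, Tnip2, Cyld, Birc2, Birc3, Otulinl (Fam105a in the files), Usp25, Traf1 and Tnfaip2, chosen by symbol among the 26683 genes of a mouse expression array. They were read by 16 of the array's 41174 oligonucleotide features: 3 for Cyld, 2 each for Birc2, Birc3, Otulinl and Usp25, and 1 for each of the other genes. The cells were IMS/N, hepatic stellate cells of normal 129/Sv mice immortalized with SV40 virus, which are the vitamin A storing cells of the liver that turn into myofibroblasts in fibrosis. The 4 groups were IMS/N with recombinant murine IL17A and medium of cultured adipose-derived stem cells (ADSC) together, IMS/N with IL17A, IMS/N with ADSC medium, and untreated IMS/N, with 1 array each. The ADSC came from inguinal subcutaneous fat of male C57BL/6J mice aged 8-10 weeks. Doses and times were not given in the sources used here, every group was the same immortalized line, and no group had a replicate. Every difference between 2 arrays below therefore has no replicate check and no test.

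NF-kB is held inactive by inhibitor proteins until receptors such as those for TNF or IL-17 assemble complexes in which ubiquitin chains recruit kinases. A20, the product of Tnfaip3, removes or edits such chains with the adaptors ABIN-1 and ABIN-2 (Tnip1 and Tnip2), and the deubiquitinase CYLD cuts several kinds of chain, linear ones among them. The cellular inhibitors of apoptosis cIAP1 and cIAP2 (Birc2 and Birc3) are ubiquitin ligases that both build chains on receptor complexes and keep the kinase NIK low, so they are brakes only on the branch that runs through NIK. USP25 is a deubiquitinase known to dampen IL-17 signalling at TRAF proteins, TRAF1 is an adaptor that binds TRAF2 and the cIAPs, Otulinl encodes a relative of the linear-chain deubiquitinase OTULIN without known catalytic activity, and Tnfaip2 is a TNF-induced gene with no known ubiquitin-editing activity. Several of these genes, Tnfaip3, Birc3 and Traf1 among them, are themselves known NF-kB targets in other cells.

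Levels are log2 of the background-subtracted processed signal after quantile normalization over the 4 arrays, and a level is compared only within a feature. Between 58.1% and 60.5% of spots on an array were well above background by the scanner software's flag, and no spot was saturated. Untreated cells and cells with IL17A were on slide 1, and both arrays with ADSC medium on slide 2, so an effect of the medium and one of the slide cannot be told apart, whereas each IL17A difference lies within a slide. Vim, Pdgfrb and Lhx2 were well above background on all 4 arrays, as were all 8 myofibroblast markers, while the stellate cell markers Reln, Hand2 and Hhip were on none. None of 5 hepatocyte markers, and neither Adgre1 nor Clec4f of the macrophage markers, was well above background on any array. Of 6 macrophage or leukocyte markers 3 were above background on all 4 arrays, and the summed normalized signal of all 6 was 136.3 with both treatments, 97.1 with IL17A, 119.4 with ADSC medium and 81.7 in untreated cells. Of 6 cholangiocyte or mesothelial markers 3 were, and Krt19 had a log2 difference with IL17A of -2.21 in medium and -1.39 without it. Of 5 adipocyte markers only Fabp4 was, with IL17A differences of 0.51 in medium and 1.32 without it. The 8 myofibroblast markers had a median IL17A difference of -0.31 in medium and -0.50 without it. For the stellate cell markers well above background on both arrays, the median was -0.08 in medium and -0.25 without it. The part of these lists in the results below was not tested. In a bulk sample, fewer cells of a type and less RNA per cell cannot be told apart. A difference was counted when it reached 2-fold (1 log2 unit) with the brighter array well above background. A dim side was set to the floor of its array, which is the smallest value flagged there as well above background, unless its own value was higher, and such a fold is given as "at least". As a scale for the differences, the IL17A differences on slide 2 and slide 1 were compared over genes well above background on all 4 arrays. The median absolute deviation of their disagreement was scaled to the SD of a single log2 difference. It gave an SD of 0.11 at levels of 7 and above and 0.26 at levels of 5 to 7. This estimate gives little weight to the tails. Replicate spots of a feature gave 0.062 at levels of 7 and above. The SD of 0.11 holds the spread between the 4 arrays and cultures and any true interaction of the treatments, while the spot value holds neither. Scaling each array to its median in place of quantile normalization moved the median difference over all genes to 0.21 with IL17A without medium and to -0.24 with IL17A in medium, so a sign that it turned is named beside the value.

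Of the 9 members well above background on both arrays, 0 reached 2-fold with IL17A against untreated cells, where 4.48% of 15802 genes did. The 9 differences ran between -0.53 for Traf1 and 0.49 for Birc3 with a median of -0.02, and 4 were above 0 and 5 below. The median size of a member's difference was 0.23, against 0.16 over all genes well above background on both arrays. With IL17A in ADSC medium against ADSC medium, 1 of 10 members reached 2-fold, Otulinl, where 4.68% of 16062 genes did. The other 9 ran between -0.94 for Traf1 and 0.15 for Birc3, with a median of -0.07.

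**Figure D1:**
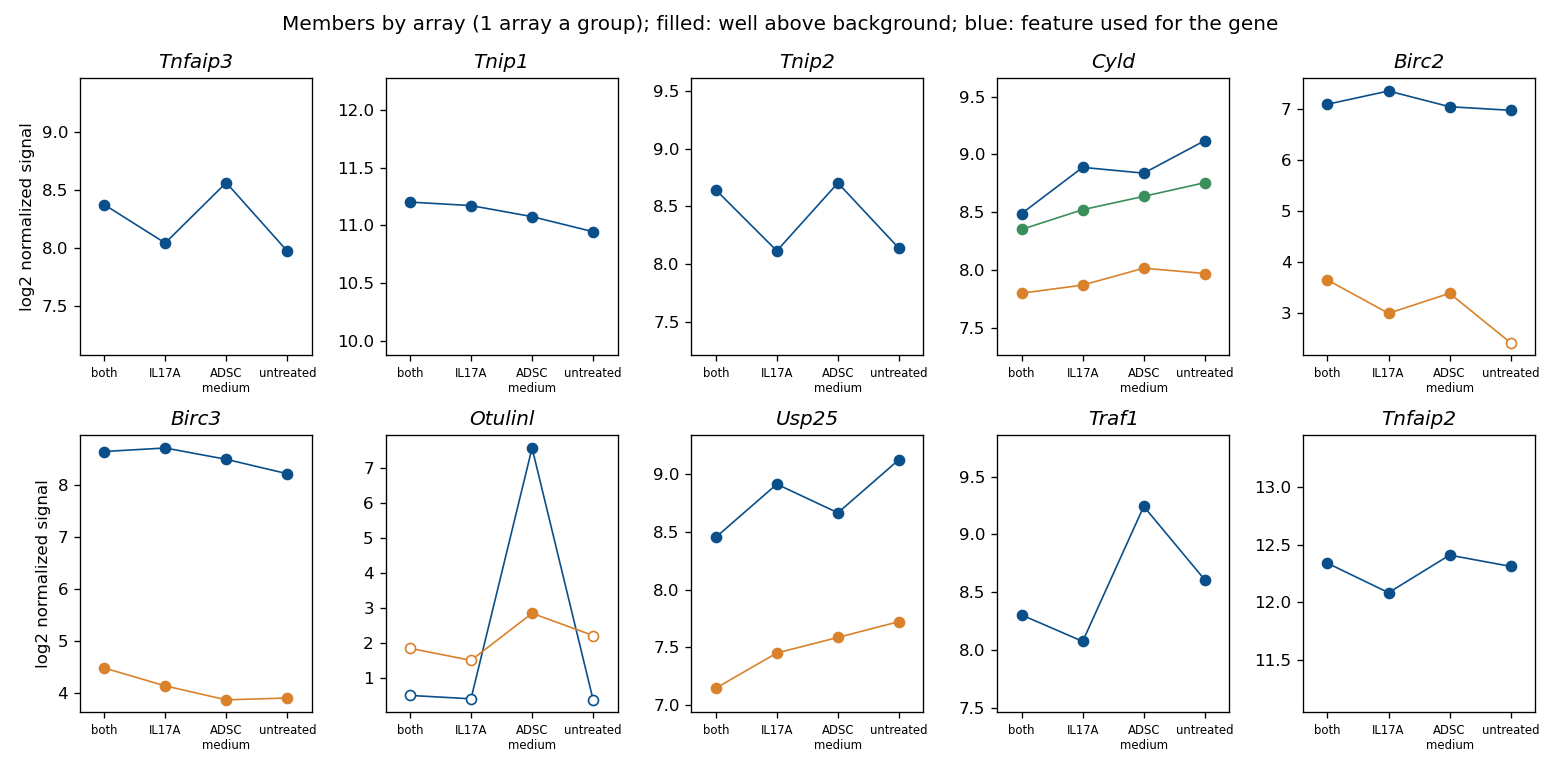
Log2 normalized signal (vertical axis) of each member on the 4 arrays (horizontal axis), 1 panel a gene and 1 line a feature, with blue for the feature used for the gene. Filled points were well above background and open points were not. Panels span 2.4 log2 units except those of Birc2, Birc3 and Otulinl. Traf1 lies lowest on both arrays with IL17A, Cyld and Usp25 lie lowest on the array with both treatments, and Otulinl stands out on the ADSC medium array alone.

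A20 and its partners come first. Tnfaip3 had a log2 level of 8.38 with both treatments, 8.04 with IL17A, 8.56 with ADSC medium and 7.97 in untreated cells. Both arrays with ADSC medium were above both without it. With quantile normalization, arrays of the same slide lay closer together than arrays of different slides. The IL17A difference of Tnfaip3 was -0.19 in medium and 0.07 without it, so the sign differed, and 75.3% of genes had a difference at least that large in size without medium. Its medium difference was 0.33 with IL17A and 0.59 without. Median scaling moved the IL17A difference of Tnfaip3 to -0.40 in medium and 0.29 without it. It moved the medium difference to 0.12 with IL17A and 0.81 without. Tnip1 had levels of 11.20 with both treatments, 11.17 with IL17A, 11.08 with ADSC medium and 10.94 in untreated cells. All 4 levels lay within 0.26, and the 2 arrays with IL17A, which differed by 0.03, were the highest with quantile normalization. Median scaling turned the difference of both treatments against IL17A to -0.19. Its IL17A difference was 0.13 in medium, where it turned to -0.13 with median scaling, and 0.23 without it. Tnip2 had levels of 8.64 with both treatments, 8.12 with IL17A, 8.70 with ADSC medium and 8.14 in untreated cells. It was higher on both arrays with ADSC medium than on both without, by 0.53 with IL17A and 0.57 without, and its IL17A differences of -0.06 in medium and -0.02 without it were within that SD of 0.11, with the value without medium turning to 0.20 with median scaling.

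RefSeq windows of 250 bases before and 50 after the gene start were searched for the NF-kB kappa-B consensus and for GGNNTTTCC on both strands, and a stretch may match both. The windows upstream of the starts of Tnfaip3 and Tnip1 are shown because the 2 genes are a main brake and its adaptor and both hold matches. Tnfaip2, not shown, held matches that begin 87 and 24 bases before its start, and those of Cyld begin 155 before. Matches are in capitals. The sequences are from RefSeq on GRCm38.p6, minus strand, chr10:19015411-19015660 for Tnfaip3 and chr11:54962941-54963190 for Tnip1, read 5′ to 3′ up to the base before the start.
Tnfaip3: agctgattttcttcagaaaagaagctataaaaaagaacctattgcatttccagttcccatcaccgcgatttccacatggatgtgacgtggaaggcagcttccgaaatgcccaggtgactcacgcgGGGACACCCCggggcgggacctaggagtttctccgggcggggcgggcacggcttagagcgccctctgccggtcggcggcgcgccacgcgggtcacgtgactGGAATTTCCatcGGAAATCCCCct
Tnip1: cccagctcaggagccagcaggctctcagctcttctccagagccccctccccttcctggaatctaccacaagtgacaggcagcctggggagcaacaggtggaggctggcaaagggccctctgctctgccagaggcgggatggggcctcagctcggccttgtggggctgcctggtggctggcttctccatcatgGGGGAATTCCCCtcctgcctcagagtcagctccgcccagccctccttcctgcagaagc
The stretch GGAATTTCC of Tnfaip3 begins 24 bases before the start and GGAAATCCCC begins 12 before it. In Tnip1 the matches overlap and begin 58 to 56 bases before the start. A second RefSeq window of Tnfaip3, at another start, held no match.

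Windows of 4 of the 10 members (Cyld, Tnfaip2, Tnfaip3 and Tnip1) held the kappa-B consensus, against 9.55% of 27025 genes with a window, and windows of 3 members (Cyld, Tnfaip2 and Tnfaip3) held GGNNTTTCC, against 6.62%. Of the 18 NF-kB target genes outside the members with a window, 11 held the kappa-B consensus and 11 held GGNNTTTCC. These are matches of letters, and binding was not measured. The windows of the other members held neither motif.

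The deubiquitinases Cyld and Usp25 were lower with both agents together than in any other group. The Cyld feature used for the gene had levels of 8.49 with both treatments, 8.89 with IL17A, 8.84 with ADSC medium and 9.12 in untreated cells. IL17A and ADSC medium alone gave levels within 0.05 of each other. The IL17A difference was -0.35 in medium and -0.23 without it, and the medium difference was -0.40 with IL17A and -0.28 without. Median scaling moved the IL17A difference to -0.56 in medium and -0.004 without it. It moved the medium difference to -0.62 with IL17A and -0.06 without. Under quantile normalization, the other 2 Cyld features had IL17A differences of -0.22 and -0.29 in medium and -0.10 and -0.23 without it. For the medium they had -0.07 and -0.17 with IL17A and 0.05 and -0.12 without, so the features disagreed in sign without IL17A. All 3 lie on chromosome 8 of mm9, in an ascending order of position at chr8:91229427-91229486 (the feature used), chr8:91271594-91271653 and chr8:91275637-91275696, and which exon each lies in was not analysed here.

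Usp25 had levels of 8.45 with both treatments, 8.91 with IL17A, 8.67 with ADSC medium and 9.13 in untreated cells. The array with both treatments was lowest and untreated cells highest, and neighbours in the order differed by 0.21 to 0.25. The IL17A difference was -0.21 both in medium and without it, and the medium difference was -0.46 both with IL17A and without. The second Usp25 feature had IL17A differences of -0.44 in medium and -0.27 without it, and medium differences of -0.30 with IL17A and -0.14 without. Both features thus gave negative values in these 4 comparisons under quantile normalization, while median scaling turned the IL17A difference without medium to 0.02 for the feature used. With IL17A and medium together against untreated cells, Usp25 had -0.67 and Cyld -0.63, and 12.8% and 14.4% of genes had a difference at least as large in size. In that comparison 0 of 9 members reached 2-fold, against 7.67% of 16239 genes.

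The ubiquitin ligases Birc2 and Birc3 were highest with IL17A alone. Birc2 had levels of 7.10 with both treatments, 7.36 with IL17A, 7.05 with ADSC medium and 6.98 in untreated cells. Birc3 had levels of 8.63 with both treatments, 8.70 with IL17A, 8.48 with ADSC medium and 8.21 in untreated cells. The IL17A difference was 0.05 in medium and 0.38 without it for Birc2, and 0.15 in medium and 0.49 without it for Birc3. Both differences without medium were more than 3 times the SD of 0.11. However, Birc2 was at 6.98 in untreated cells, at the edge of the levels of 5 to 7, where that SD was 0.26. With normexp background correction in place of the processed signal, the Birc2 difference without medium was 0.26. That setting adds an offset of 50 to each signal, which by itself shrinks log2 differences, most at dim spots. The part of the background step in the smaller value was not tested. Both differences in medium were within 1.5 times the SD of 0.11. They turned to -0.10 for Birc2 and -0.07 for Birc3 with median scaling. The medium difference of Birc2 was -0.26 with IL17A and 0.07 without, and that of Birc3 was -0.07 with IL17A and 0.28 without. The 2 genes are neighbours on chromosome 9, and each had a second feature listed under an Ensembl transcript.

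The second features are shown because they gave other values than the first. The first 30 bases of each 60-base feature follow, 5′ to 3′, in lower case with no base marked.
Birc2, chr9:7818688-7818747: gaagaatggtctgaaagtattgttggacat
Birc2, second feature, chr9:7836811-7836870: cataagtccttgggcttggacttgtataac
Birc3, chr9:7848873-7848932: attgcctgcactcctgaaattctcagaaag
Birc3, second feature, chr9:7856162-7856221: acagataatgcccagctaatagaacagggt
All 4 positions are on the minus strand of mm9, as the files give them. The second Birc2 feature had levels of 3.64 with both treatments, 2.98 with IL17A, 3.38 with ADSC medium and 2.40 in untreated cells, where it was not well above background. With both treatments it was at least 2.36-fold above untreated cells, while the first feature differed by 0.12 on the log2 scale. The second Birc3 feature had levels of 4.49 with both treatments, 4.14 with IL17A, 3.88 with ADSC medium and 3.91 in untreated cells. At such levels, below 5, that SD of a log2 difference was 0.43. With IL17A in medium, the second features had differences of 0.26 for Birc2, below that SD, and 0.61 for Birc3, above it. The 2.36-fold of the second Birc2 feature is 1.24 on the log2 scale, which lies further above that SD.

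The adaptor Traf1 showed the largest IL17A difference in size among the 9 members well above background on all 4 arrays with quantile normalization, although with median scaling Birc3 at 0.72 and Birc2 at 0.56 exceeded Traf1 at -0.31 without medium. It had levels of 8.30 with both treatments, 8.07 with IL17A, 9.24 with ADSC medium and 8.61 in untreated cells. Both arrays with IL17A were below both without it. The IL17A difference was -0.94 in medium, a 1.92-fold lower signal, and -0.53 without it, 1.45-fold lower. A difference at least as large in size was found for 3.82% of genes in medium and 11.4% without. The medium difference was 0.23 with IL17A and 0.64 without. The difference between the IL17A differences was -0.41 and was not tested. For the same quantity, the scaled median absolute deviation was 0.16 over genes well above background on all 4 arrays at levels of 7 and above. Among 1680 genes well above background on all 4 arrays with a range of at least 1 log2 unit, those with centred levels most like Traf1 over these 4 arrays were Ngef at a Euclidean distance of 0.063, Tcea3 at 0.14 and Ggt5 at 0.15. Ngef had levels of 6.37 with both treatments, 6.11 with IL17A, 7.27 with ADSC medium and 6.59 in untreated cells. With 4 points a gene, such likeness is a description.

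Tnfaip2 had levels of 12.34 with both treatments, 12.08 with IL17A, 12.41 with ADSC medium and 12.31 in untreated cells. IL17A alone was the lowest, by 0.23 below untreated cells, and the other 3 levels lay within 0.1 of each other. Its IL17A difference in medium was -0.07, and median scaling turned that without medium to 0.01.

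**Figure D2:**
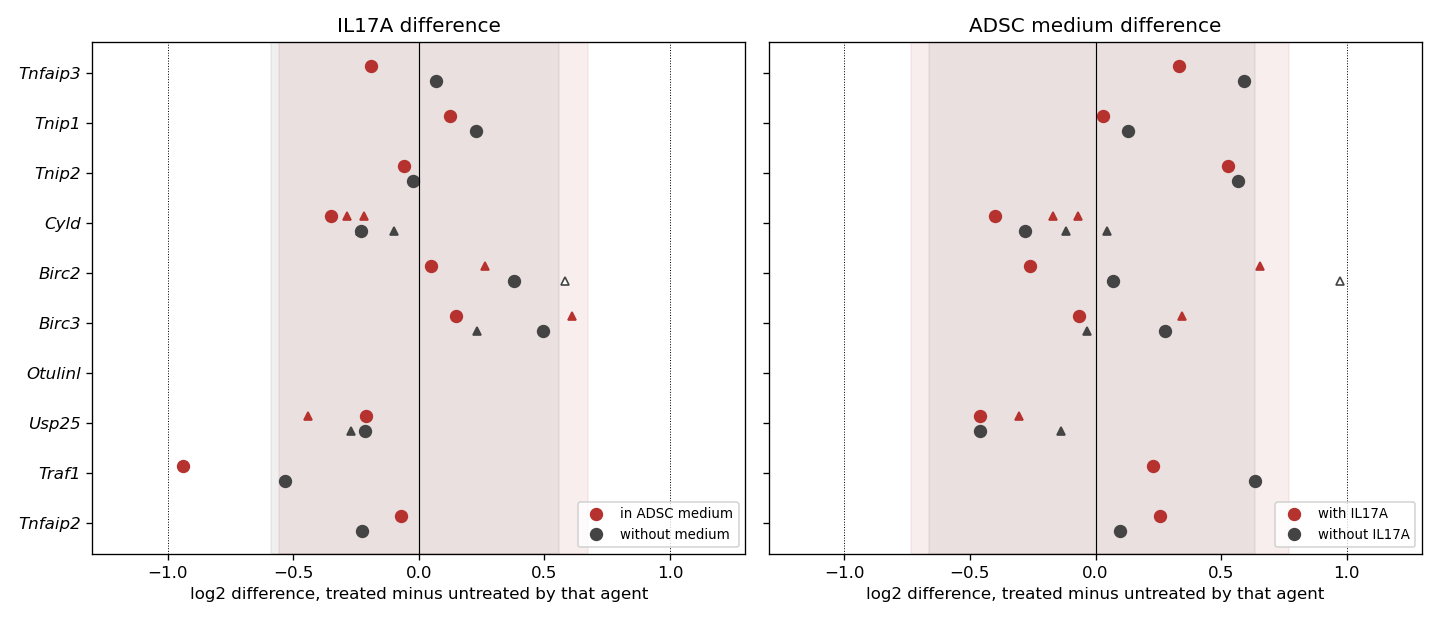
Log2 differences (horizontal axis) of the members for IL17A, left, and ADSC medium, right, with the other agent in red and without it in grey. Circles are the features used for the gene, triangles are further features, open marks are bounds, shading spans the 5th to 95th percentile of all genes in each comparison and dotted lines mark 2-fold. Otulinl is left out. Traf1 with IL17A in medium, at -0.94, is the circle farthest from 0.

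Otulinl was read as present on 1 array only. Its feature used for the gene had a processed signal of 1.46 ± 1.46 with both treatments, 1.37 ± 1.31 with IL17A, 184.4 ± 18.5 with ADSC medium and 1.42 ± 1.42 in untreated cells, where the error is the scanner software's for that spot. The ADSC medium array was well above background and the other 3 were not. The signal with ADSC medium was at least 37.8-fold above that of untreated cells, and with both treatments it was at least 37.2-fold below that of ADSC medium. With normexp background correction (offset 50), the same differences were 1.98 and -1.97 on the log2 scale, against 5.24 and -5.22. The offset is added to each signal and by itself shrinks the log2 differences of dim spots. These bounds thus hold for the processed signal only, and the part of the background step in the change was not tested. Otulinl was the 1 of 10 members to reach 2-fold with ADSC medium against untreated cells, where 5.43% of 16092 genes did. With both treatments against IL17A, 0 of 9 members did, against 6.35% of 15818 genes.

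The 2 Otulinl features are shown because they disagree in size. Their first 30 bases are given 5′ to 3′, on the minus strand of mm9.
Otulinl, chr15:27585347-27585406: ttgagtacaggatacttgcctggatttcta
Otulinl, second feature, chr15:27586750-27586809: cgggtattctcttcaagtaaagataaaagt
The second feature had processed signals of 3.99 ± 1.29 with both treatments, 2.49 ± 1.23 with IL17A, 6.50 ± 1.25 with ADSC medium and 5.41 ± 1.34 in untreated cells. It too was well above background on the ADSC medium array alone, but its bounds were 0.52 on the log2 scale against untreated cells and -0.49 with both treatments against ADSC medium. On the ADSC medium array, the pixels of the bright spot had an SD of 0.27 times their mean, against a median of 0.17 for 2143 spots of like brightness, of which 0.747% were at least as uneven. The 15 spots within 2 rows and 2 columns that were well above background on all 4 arrays had differences of that array from the mean of the other 3 between -0.79 and 0.82. The part of the spot itself in the Otulinl difference was not tested.

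**Figure D3:**
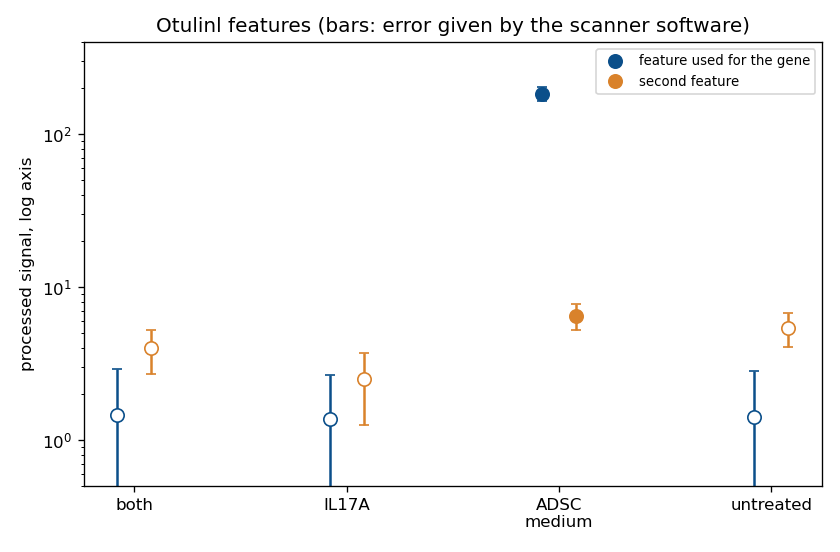
Processed signal (vertical log axis) of both Otulinl features on the 4 arrays, 1 array a group. Filled points were well above background, open points were not, and bars are the scanner software's error, some of which run below the axis. The first feature is at 184.4 on the ADSC medium array, while the second is at 6.50 there.

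A single model over the 4 arrays, with an IL17A term and a medium term (limma, Benjamini-Hochberg over 15472 genes), was the only fit that left a residual degree of freedom, and it takes any departure from additivity as error. Of 9 members in it, 1 was called for IL17A, Traf1, at -0.74 ± 0.12 (SE) with a limma adjusted p of 0.019, lower on 2 of 2 slides, where 6.33% of genes were called. For the medium, 4 were called, where 18.6% of genes were. Tnip2 had 0.55 ± 0.096 (SE) with a limma adjusted p of 0.012, and Tnfaip3 had 0.46 ± 0.11 with 0.033. Usp25 had -0.46 ± 0.088 with a limma adjusted p of 0.016, and Cyld had -0.34 ± 0.090 with 0.043. In the features used, each kept its sign with and without IL17A. The other Cyld features had medium differences of 0.05 and -0.12 without IL17A and -0.07 and -0.17 with it. The second Usp25 feature had -0.14 without IL17A and -0.30 with it. Traf1 missed the threshold for the medium at 0.43 ± 0.12, with a limma adjusted p of 0.051, and was called with normexp (0.036) and with RefSeq-named features only (0.022). Without a trend of variance on level in limma, 0 members and 0 genes were called for either term, with unadjusted p under 0.05 for 1 member (Traf1) for IL17A and 4 members for the medium. The Traf1 call for IL17A was also lost with median scaling, with 75th percentile scaling (limma adjusted p 0.090), with another background correction (0.065) and with the mean of a gene's features (0.069). The fitted effect stayed between -0.74 and -0.62 in those settings. It averages the IL17A differences in medium and without it, which were -1.17 and -0.31 with median scaling, against -0.94 and -0.53 with quantile normalization. For the medium, Tnip2 kept its call in 4 of the 6 alternatives, Usp25 in 3, Tnfaip3 in 2 and Cyld in 1.

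The wider pathway around the members was read with lists of related genes. Of the 24 measured NF-kB target genes outside the members, 13 reached 2-fold higher with IL17A against untreated cells and 0 lower, where 2.18% of genes were higher. In ADSC medium, 10 of 22 did and 0 were lower, where 2.86% of genes were higher. Over all genes, 460 were higher and 292 lower in medium and 345 and 363 without it, and scaling to the 75th percentile gave 723 and 171 in medium and 263 and 533 without it. The medians of those well above background on both arrays were 0.92 in medium and 1.16 without it, against -0.03 and 0.003 over all genes. The list holds genes chosen with results of these arrays known, and is no independent evidence of a direction. The cytokine gene Il6 showed a 44.7-fold higher signal with IL17A in medium and a 108.4-fold higher one without it. Among chemokines that attract neutrophils, Cxcl5 was 60.3-fold higher in medium and 51.8-fold without it, and Cxcl1 41.7-fold and 38.3-fold. Zc3h12a, which encodes an RNase that degrades inflammatory transcripts and is thus another brake, was 15.6-fold higher in medium and 16.6-fold without it. Nfkbia, the gene of the inhibitor IkB-alpha, was 2.26-fold higher with IL17A without medium. Its fitted IL17A effect over both pairs of arrays was 1.06 log2 units, so its difference in medium was smaller.

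In the 7 other lists, at most 1 gene reached 2-fold in any of these IL17A comparisons, always upward. Over all genes, 4.68% reached 2-fold in either direction in medium and 4.48% without it. With lists this short, such counts say nothing about the lists. None of 5 measured A20 partners did, and their largest difference was 0.43 in medium and 0.35 without it, in both cases for Rnf11, a subunit of the A20 complex. None of 5 genes of linear ubiquitin assembly and removal did, with differences between -0.17 and 0.14, and none of 14 other deubiquitinases. Of 10 genes of the TRAF family and the IL-17 receptor adaptor, 1 did without medium, Traf3ip2, which encodes that adaptor (Act1), at 1.05, against 0.52 in medium. Ripk2, a kinase of NOD receptor signalling, was the 1 of 17 genes of ubiquitin conjugation and receptor kinases, at 1.38 without medium and 0.31 in it. Tnfrsf1b, the second TNF receptor, was 2.04-fold higher in medium and 2.06-fold without it, the 1 of 9 and of 8 measured genes of TNF receptor complexes. None of 7 measured genes of the IAP family outside the members did, and Xiap, an inhibitor of caspases, had -0.24 in medium and 0.05 without it.

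**Figure D4:**
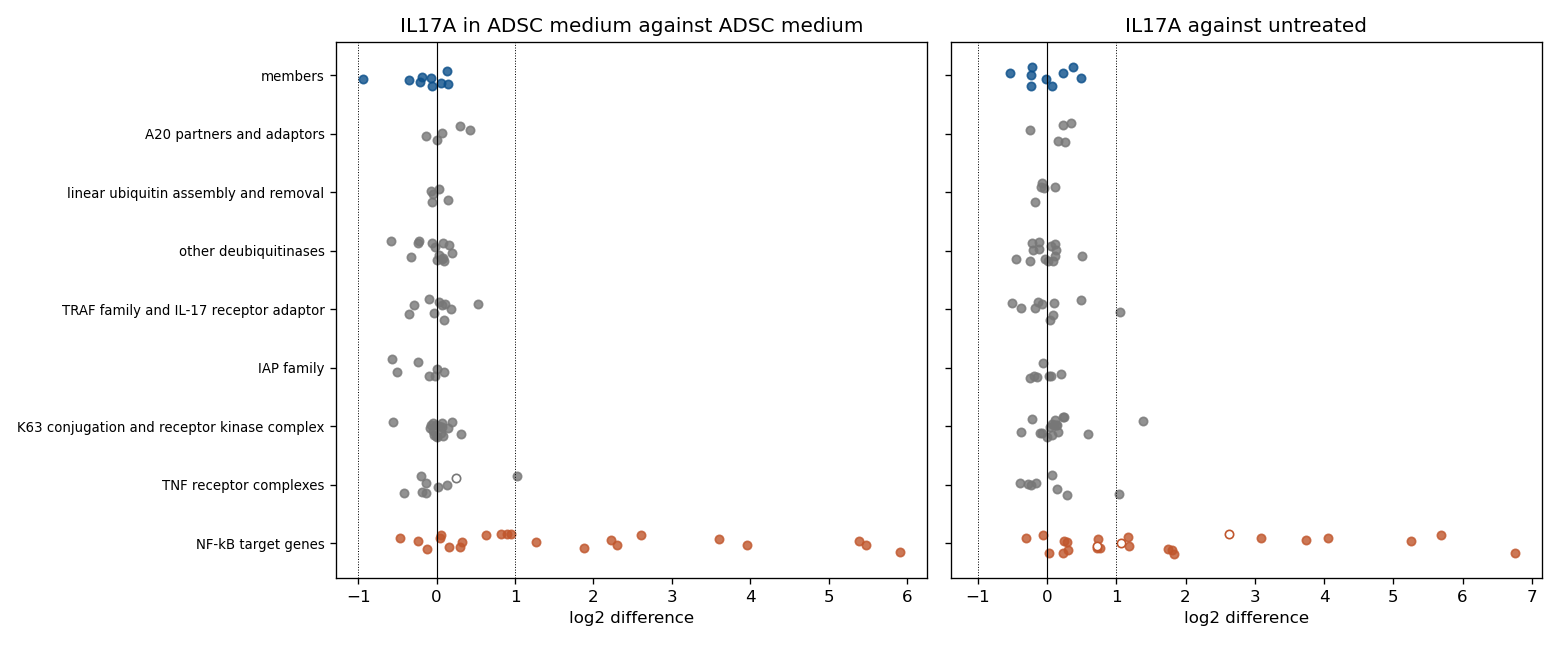
Log2 difference with IL17A (horizontal axis) for the 9 members other than Otulinl (blue), 7 lists of related genes (grey) and NF-kB target genes (orange), in ADSC medium, left, and without it, right. Each point is a gene, open points are bounds, vertical scatter is only for legibility and dotted lines mark 2-fold. NF-kB target genes reach beyond 5 log2 units while the members stay within 1.

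With ADSC medium against untreated cells, Naip5, a sensor of bacterial proteins in the IAP family, was 2.33-fold higher, at log2 levels of 4.71 with ADSC medium and 3.50 in untreated cells. Bcl3, an atypical inhibitor family member that works with NF-kB in the nucleus, was 2.30-fold higher, but its medium difference with IL17A was -0.01. Cxcl5 and the chemokine gene Ccl2 were 2.20-fold and 2.03-fold lower, and their medium differences with IL17A were -0.92 and -0.46. No other gene of the 8 lists reached 2-fold in that comparison. With both treatments against IL17A, 2 of 24 measured NF-kB target genes were at least 2-fold lower and 0 were higher. Over all genes, 6.35% of 15818 reached 2-fold in either direction there. Il6 was among the 2, at 2.52-fold lower.

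The authors' deposited tables of features higher with IL17A, 861 against untreated cells and 1193 against IL17A plus ADSC medium, held 0 of the 16 features of the members. As the tables hold 2.09% and 2.9% of all features, a count of 0 says nothing about the members. Those tables held features of 16 and 6 of the NF-kB target genes.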

How the data were processed

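Gene expression was measured in 4 samples of IMS/N cells, 1 in each group, on 1-colour Agilent arrays labelled with Cy3. Per the file headers, the authors' deposited intensity values are linear signals from which Feature Extraction had taken background and spatial trend, and feature positions are on mm9. Deposited score columns mark, as 0 or 1, whether a spot was saturated, an outlier or well above background. The series design text states that the authors used quantile normalization, which the deposited signals do not yet carry, and the submitters' processing notes list R 3.5.1. The authors' deposited tables hold feature IDs of 2 comparisons, with a threshold not given in the sources used here.

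Control spots and outlier spots (91 to 126 an array) were left out, log2 signals were quantile normalized (limma 3.58.1, R 4.3.3), and spots of a feature were averaged. Names came from a RefSeq accession for 28696 of 41174 features, a current symbol for 5761, an older symbol for 163 and the file alone for 6554, through a GRCm38.p6 gene table of which no coordinate is used. A gene took its feature with the highest mean. Differences between 2 arrays have no test, since the number of arrays limits the precision. The additive fit used limma's lmFit and eBayes with a trend on genes detected, by that flag, on 2 or more arrays, with 1 residual degree of freedom, and called an adjusted p under 0.05. The 2-fold rule, without its background filter, and the IL17A term of the additive fit were tested on simulated data, and the other steps were not. Named were all members, up to 4 genes of a list with the largest difference, of which the text takes some, and the 3 genes nearest to a member with a range of at least 1. Nfkbia was named outside that rule. The members and lists were chosen with earlier results of these data known. Alternatives were scaling to the median or the 75th percentile, normexp (offset 50) as the background step, other filters and thresholds, the mean of a gene's features, features with a RefSeq accession only, and eBayes without a trend.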

Additional observations from a re-analysis of the deposited data

Results flagged for a closer look

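Of the 9 members well above background on all 4 arrays, 3 had differences of opposite sign in the 2 pairs of arrays of 1 contrast. With 1 array a group, the difference between the pairs was not tested. For the same quantity, the scaled median absolute deviation was 0.16 over genes well above background on all 4 arrays at levels of 7 and above. Birc2 lay at the edge of those levels. For Tnfaip3 the IL17A difference was -0.19 in ADSC medium and 0.07 without it, which differ by -0.26. For Birc2 the ADSC medium difference was -0.26 with IL17A and 0.07 without, which differ by -0.33. For Birc3 the ADSC medium difference was -0.07 with IL17A and 0.28 without, which differ by -0.34. With the mean of a gene's features, the values with IL17A turned to 0.20 for Birc2 and 0.14 for Birc3, so their opposite signs rest on the feature used.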

How the results depend on the processing

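No paired analysis was possible because each group had 1 array, and the slide could not be fitted as a block beside the medium. Counts of members at 2-fold were 0 for IL17A against untreated cells, 1 for IL17A in medium against medium and 1 for medium against untreated cells, and 0 in both remaining comparisons. Requiring all 4 arrays well above background left 0 where it had been 1, since Otulinl then dropped out. Median scaling gave 2 for IL17A in medium (Otulinl and Traf1). A 1.5-fold threshold gave 2 there, 3 for medium against untreated cells (Otulinl, Traf1 and Tnfaip3) and 2 for both treatments against untreated cells (Cyld and Usp25). These counts kept their main value under the alternatives not named here, among them 75th percentile scaling and 4-fold. In the additive fit, the count for IL17A was 1 and became 0 with 75th percentile scaling, median scaling, normexp, no trend and the mean of features. The count for the medium was 4 and became 2 with 75th percentile scaling, 0 with median scaling, 0 with no trend and 1 with the mean of features, while RefSeq-named features only gave 5. Over all genes, those 5 settings called 0 to 489 for IL17A, against 980, and 0 to 3008 for the medium, against 2873. Without a trend, 1852 genes for IL17A and 3340 for the medium had an unadjusted p under 0.05. Median scaling turned the sign of 7 of 47 member differences and the mean of features of 2 (the medium differences of Birc2 and Birc3 with IL17A), none of them past 2-fold, and the other 5 settings turned 0. The Otulinl differences were 1.98 for medium against untreated cells and -1.97 for both treatments against medium with normexp. Its offset of 50 by itself shrinks differences of dim spots. The second features of Birc2, Birc3 and Otulinl lie near background, which limits what they can show.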

Other observations

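The array held 8 features that were well above background on 1 array alone and at least 16-fold above the bound of each other array, a rule chosen after the values were seen. They read Olfr1423, Plg and Tesmin in untreated cells, A330078L11Rik with IL17A, Otulinl with ADSC medium, and 4930524O08Rik, AF026216 and Irak3 with both treatments. For 6 of these genes the array had at least 1 further feature, and in 0 of the 6 was that feature 2-fold higher on the same array. Irak3, which encodes an inhibitory relative of the IRAK kinases, was 20.8-fold above the highest bound of the other arrays.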
